A study of Mus musculus with 6 samples.

Results

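The thrombospondin family of the mouse has 5 genes, Thbs1, Thbs2, Thbs3, Thbs4 and Comp, and they were chosen by symbol from the 53819 genes listed in the count table. All 5 were counted in every library and all 5 passed the filter on low counts that left 17496 genes for testing. RNA was sequenced from flexor digitorum longus (FDL) tendons, the tendons that flex the digits of the hind paw, of 3 DTRScxLin and 3 WT mice, with 1 tendon per library. DTRScxLin mice were Scx-Cre+; DTR F/+ and WT mice were Scx-Cre-; DTR F/+ littermates. Both genotypes therefore carried the Rosa-DTR allele, whose diphtheria toxin (DT) receptor is expressed after Cre has removed a STOP cassette. Mice of both genotypes underwent FDL transection and repair at 10–12 weeks of age, received 100 ng DT per day for 5 days from D14 to D18, and were of either sex. Tendons were harvested at D28 post-surgery, although the titles of the libraries count the 28 days from the depletion. The Scx-Cre driver is constitutive, so the receptor marks every cell that had expressed Scx at any time before the toxin, including cells of other Scx lineage tissues. The comparison asks how the healing tendon differs after local toxin injections aimed at these cells in the proliferative phase. The paper names as a limitation that the efficiency of depletion could not be quantified. The deletion of the STOP cassette cannot be checked in the gene counts.

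Thrombospondins are large secreted glycoproteins that sit in the extracellular matrix and at the cell surface, where they link collagens, proteoglycans, proteases, growth factors and integrins. Thbs1 and Thbs2 form trimers and carry the type 1 repeats that bind CD36 and, in Thbs1, activate latent TGF-beta. Thbs3, Thbs4 and Comp (cartilage oligomeric matrix protein, also called thrombospondin-5) form pentamers without type 1 repeats. Thbs4 and Comp are abundant in tendon, where Comp binds fibrillar collagen and aids fibril assembly, and Thbs4 is prominent at the junction of muscle and tendon.

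The libraries held between 42744138 and 48854310 counts. The family took 0.822%, 0.832% and 0.898% of all counts in WT replicates 1, 2 and 3 and 1.30%, 1.11% and 1.19% in DTRScxLin replicates 1, 2 and 3. Each DTRScxLin library thus gave the family a larger share than each WT library, and most of that share was Thbs4, which alone held 0.532% to 0.589% of counts in WT and 0.814% to 0.917% in DTRScxLin. Libraries differed in ways that genotype does not describe. Among WT replicates 1 to 3 skeletal muscle markers took 3.34%, 3.05% and 2.44% of counts, against 0.437%, 2.95% and 0.816% in DTRScxLin replicates 1 to 3. Keratinocyte markers took 0.402% and 0.247% in WT replicates 1 and 2 and at most 0.0450% in the other 4 libraries. Xist, which is expressed from the inactive X chromosome of females, had 49303 to 54082 counts in WT replicate 2 and DTRScxLin replicates 2 and 3 and at most 4 in the rest, so sex was mixed in both groups. The tendon markers Dcn, Fmod and Tnmd were abundant in every library, with Tnmd between 1100 and 2009 CPM. Scx itself, whose lineage was targeted, had 48.0, 58.9 and 66.8 CPM in WT and 75.7, 74.2 and 76.9 CPM in DTRScxLin replicates, without overlap between the groups. Its log2 fold change was 0.39 (adjusted p = 0.371, edgeR's quasi-likelihood test). In the same test 11 of the 15 tendon markers had a positive log2 fold change and 4 a negative one (median 0.25). At an unadjusted p under 0.05, 4 were higher and 0 lower, beside 5.52% and 5.45% of all tested genes. Without overlap 5 were higher and 0 lower, beside 8.96% and 7.85%. In bulk tissue, fewer cells of a type and less RNA per cell cannot be told apart, and the same holds for more cells and more RNA per cell.

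Of the trimeric members, Thbs1 encodes thrombospondin-1, a ligand of CD36 and CD47 that inhibits angiogenesis and activates latent TGF-beta. Its level, in CPM (counts scaled to a common library total after TMM normalization), was 495, 493 and 494 in WT replicates 1, 2 and 3 and 941, 663 and 920 in DTRScxLin replicates 1, 2 and 3. All 3 DTRScxLin libraries lay above all 3 WT libraries, and DTRScxLin replicate 2 lay closest to WT. The mean was 842 ± 155 CPM (SD, n = 3) in DTRScxLin against 494 ± 1.12 CPM (SD, n = 3) in WT, 1.70-fold higher, and the fitted log2 fold change was 0.77 ± 0.15 (standard error). The unadjusted p was 0.0012 and the adjusted p was 0.274 with edgeR's quasi-likelihood test and Benjamini-Hochberg adjustment over all tested genes. DESeq2 gave an adjusted p of 0.000122 for the same gene. The 3 WT values were closer together than counting error alone gives on average, with a coefficient of variation of 0.228% against 0.663%, while that of the DTRScxLin libraries was 18.4%.

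Thbs2 encodes thrombospondin-2, the other trimer, which binds matrix metalloproteinases and is needed for normal collagen fibrils. It was at 1295, 1080 and 1129 CPM in WT and at 1801, 1207 and 1586 CPM in DTRScxLin replicates 1 to 3. DTRScxLin replicates 1 and 3 were above every WT library, but replicate 2 fell inside the WT range. The means were 1168 ± 113 CPM in WT and 1531 ± 301 CPM in DTRScxLin (SD, n = 3 each), and the fitted log2 fold change was 0.39 ± 0.18 (standard error, adjusted p = 0.464, edgeR's quasi-likelihood test). The unadjusted p of Thbs2 was 0.0581 with this test and 0.0172 with DESeq2, whose adjusted p was 0.228. Thbs2 thus did not pass the threshold on the adjusted p with either method. Leaving out DTRScxLin replicate 1 lowered the log2 fold change to 0.25.

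Among the pentameric members, Thbs3 encodes thrombospondin-3, which is expressed in the developing skeleton. It stood at 341, 379 and 414 CPM in WT and at 383, 319 and 361 CPM in DTRScxLin replicates 1 to 3. The groups overlapped, with means of 378 ± 36.6 CPM in WT and 354 ± 32.2 CPM in DTRScxLin (SD, n = 3 each). The fitted log2 fold change was -0.09 ± 0.12 (standard error, adjusted p = 0.794, edgeR's quasi-likelihood test). In the reference annotation 6.59% of the exon bases of Thbs3 lie over exons of Mtx1 on the opposite strand. Mtx1 had 6020 counts over the 6 libraries, fewer than Thbs3 had in any 1 of them, where the lowest was 15316. Whether counting used strand is not given in the sources used here.

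Thbs4 encodes thrombospondin-4, a matrix protein of tendon and muscle attachment that also has a role inside the cell, where it binds Atf6 and promotes the folding and secretion of matrix proteins. WT replicates 1, 2 and 3 had 5317, 5352 and 5879 CPM and DTRScxLin replicates 1, 2 and 3 had 9707, 8407 and 7784 CPM. No DTRScxLin library was as low as any WT library, and the gap between the groups was wider than the whole range of WT. The DTRScxLin mean of 8633 ± 981 CPM was 1.57-fold the WT mean of 5516 ± 315 CPM (SD, n = 3 each). Its fitted log2 fold change was 0.65 ± 0.16 (standard error), with an unadjusted p of 0.00433 and an adjusted p of 0.307 from edgeR's quasi-likelihood test. DESeq2 gave an adjusted p of 5.94e-05.

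Comp encodes a matrix protein that binds collagens and matrilins and is used as a marker of both tendon and cartilage. It was at 762, 813 and 1054 CPM in WT and at 908, 698 and 715 CPM in DTRScxLin replicates 1 to 3. DTRScxLin replicate 1 fell within the WT range and the other 2 fell below it. Means were 876 ± 156 CPM in WT and 774 ± 117 CPM in DTRScxLin (SD, n = 3 each), and the fitted log2 fold change was -0.18 ± 0.17 (standard error, adjusted p = 0.713, edgeR's quasi-likelihood test). The size of this value rested on single libraries, since it was -0.03 without WT replicate 3 and -0.31 without DTRScxLin replicate 1. Cartilage markers took 0.0254% to 0.0408% of counts, with overlapping groups, and the cartilage genes Matn1, Cnmd, Snorc and Col10a1 were too low to be tested. Acan, the most abundant cartilage marker, was at 150, 157 and 228 CPM in WT and 265, 120 and 237 CPM in DTRScxLin replicates 1 to 3, which also overlapped.

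**Figure D1:**
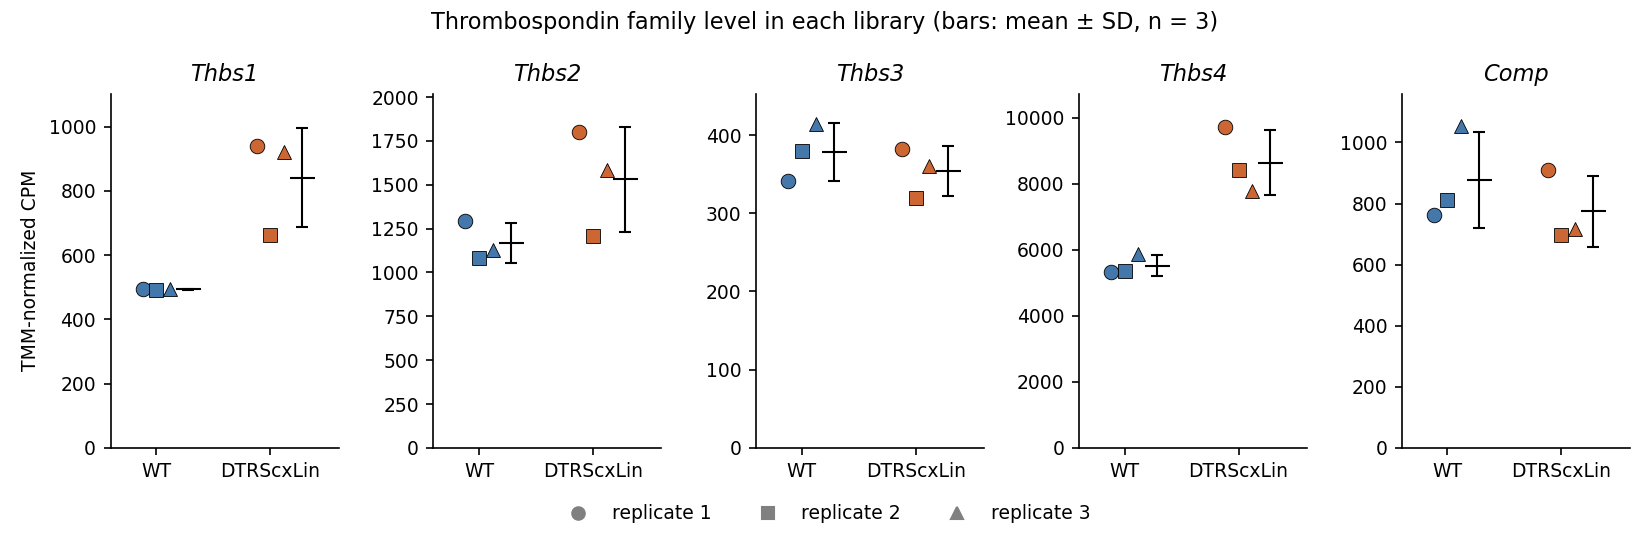
TMM-normalized CPM of the 5 family members in each library (points; shape marks the replicate), with the group mean and SD (bar and whiskers, n = 3 each); each vertical axis starts at 0. Thbs1 and Thbs4 are higher in all 3 DTRScxLin libraries than in all 3 WT libraries, while the groups overlap for Thbs2, Thbs3 and Comp.

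None of the 5 members had an adjusted p under 0.05 with edgeR's quasi-likelihood test, which called 0% of the 17496 tested genes in either direction (smallest adjusted p = 0.199). At an unadjusted p under 0.05 the test took 2 members, Thbs1 and Thbs4, and 1918 genes in all, 11% of those tested, of which 5.52% were higher and 5.45% lower in DTRScxLin. The same 2 members were without overlap between the groups and higher, as were 8.96% of the tested genes, while 7.85% were without overlap and lower (16.8% in all). DESeq2 called these 2 members with an adjusted p under 0.05, where it called 1.12% of 17564 genes as higher and 1.53% as lower, 2.65% in all. Both genes stood on the study's lists of matrix and adhesion genes, which were chosen on these libraries, so their direction is not independent evidence. For Thbs4 the paper also reports more immunofluorescence staining of the protein in DTRScxLin than in WT repairs at D28, which was not analysed here. The median log2 fold change of all tested genes was 0.0082, a value which the TMM scaling itself holds near 0. In all 17 alternative settings, which refit the same libraries, each member kept the sign of its log2 fold change. The values ranged from 0.45 to 0.92 for Thbs1, 0.06 to 0.54 for Thbs2, -0.27 to -0.02 for Thbs3, 0.55 to 0.72 for Thbs4 and -0.40 to -0.03 for Comp.

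**Figure D2:**
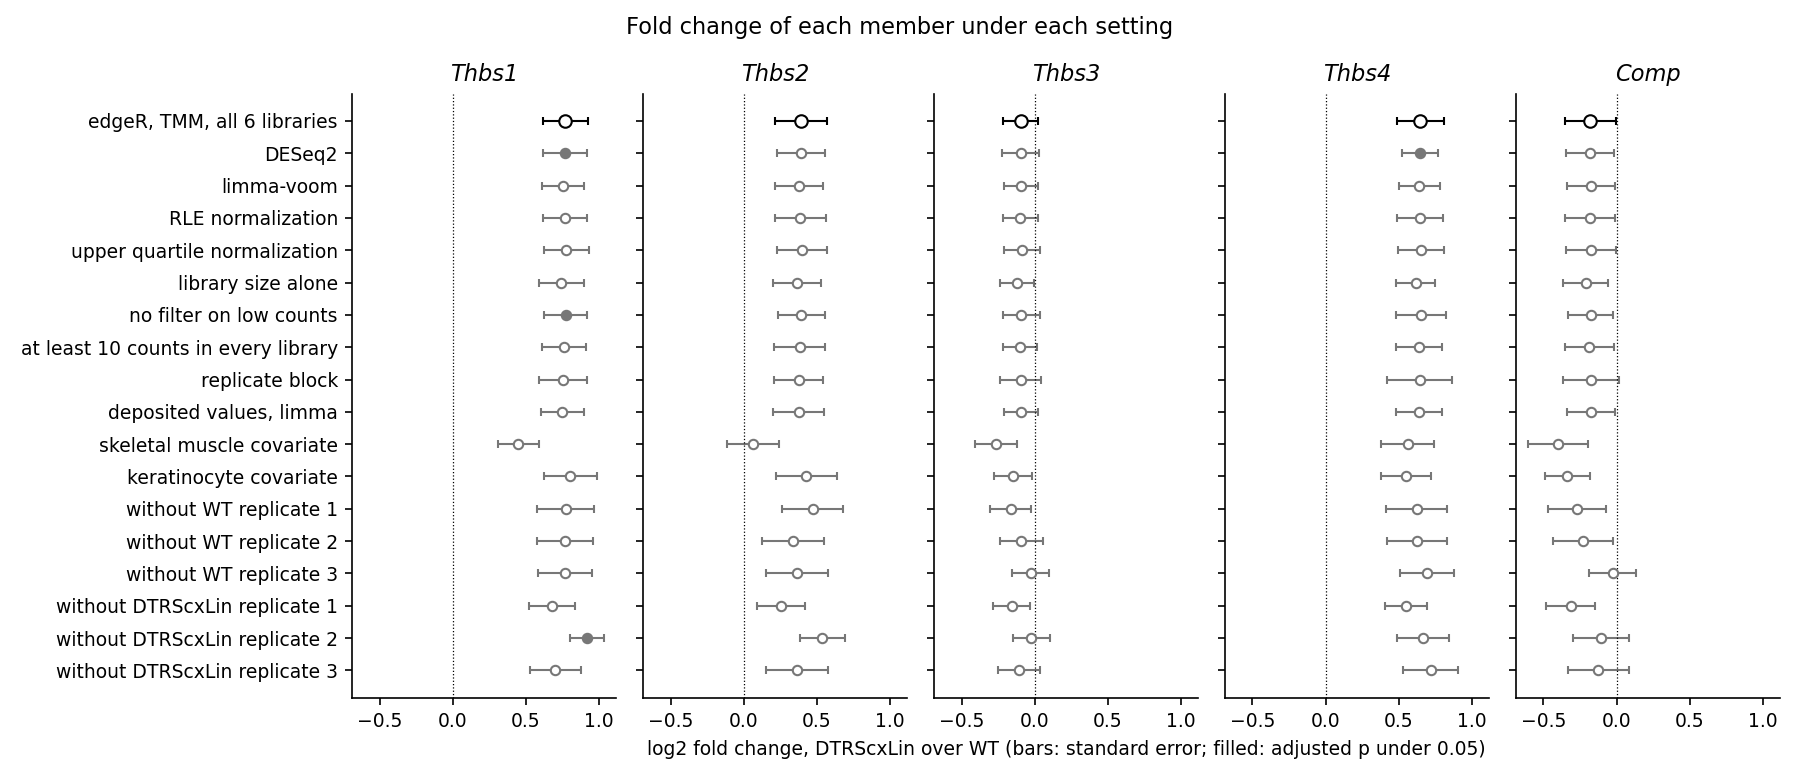
Log2 fold change (DTRScxLin over WT) of each member in the fit described in the text and in each of 17 alternative settings. Each is a point with a bar for its standard error, filled where the adjusted p is under 0.05. All values of Thbs1, Thbs2 and Thbs4 lie above 0 and all values of Thbs3 and Comp below 0; Thbs2 comes closest to 0 among the higher genes, at 0.06.

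The DNA upstream of the members is shown, as a description, as far as the RefSeq promoter table (GRCm38.p6) holds it. The table held the 250 bases before the start of Thbs2, Thbs3 and Thbs4, while those of Thbs1 and Comp are named only. The sequences run 5′ to 3′ on the strand of the gene, and capitals mark the matches to the motifs given after them.
Thbs2, chr17:14694263-14694512, minus strand: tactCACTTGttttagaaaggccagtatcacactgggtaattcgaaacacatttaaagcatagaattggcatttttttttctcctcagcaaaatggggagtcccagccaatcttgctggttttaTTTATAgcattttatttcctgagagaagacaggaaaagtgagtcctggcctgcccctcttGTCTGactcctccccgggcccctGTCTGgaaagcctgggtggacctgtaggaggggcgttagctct
Thbs3, chr3:89214930-89215179, plus strand: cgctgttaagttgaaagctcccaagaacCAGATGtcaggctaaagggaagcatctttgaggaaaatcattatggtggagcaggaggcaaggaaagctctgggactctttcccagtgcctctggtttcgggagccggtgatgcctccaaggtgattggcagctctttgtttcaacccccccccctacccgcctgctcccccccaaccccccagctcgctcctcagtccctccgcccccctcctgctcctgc
Thbs4, chr13:92794819-92795068, minus strand: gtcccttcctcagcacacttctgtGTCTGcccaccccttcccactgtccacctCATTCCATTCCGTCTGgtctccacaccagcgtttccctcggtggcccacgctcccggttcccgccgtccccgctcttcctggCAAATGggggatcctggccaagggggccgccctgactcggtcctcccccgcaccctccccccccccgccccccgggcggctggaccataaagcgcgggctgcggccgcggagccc

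The 6 motifs were searched on both strands, and each share is that of the 32851 promoter windows of the same length with at least 1 match. The E-box CANNTG, the class of site that Scx and other basic helix-loop-helix factors bind, had 1 match in each of the 3 windows and a match in 66.2% of all. The Smad element CAGAC, which the effectors of TGF-beta bind, had 2 matches in Thbs4, 2 in Thbs2 and 0 in Thbs3 (42.2% of all). In Thbs4 these lay 226 to 222 and 186 to 182 bases before the start. The TEAD motif GGAATG of the Yap and Taz pathway had 2 matches in Thbs4, which share 1 base and lie 197 to 187 bases before the start, and 0 in Thbs2 and Thbs3 (12.6% of all). The letters of the TATA box, TATAAA, were found in Thbs2 alone of the 3 (12.4% of all). They lay on the opposite strand, 126 to 121 bases before the start. The AP-1 motif TGANTCA (6.75% of all) and the CArG box of serum response factor (1.47% of all) had 0 matches in the 3 windows. GC content was 46.8% in Thbs2, 58.8% in Thbs3 and 70.8% in Thbs4, beside a median of 52.4% over all windows. A match describes the letters and not a bound site, and no binding was measured here.

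Levels were compared between members as CPM per kilobase of exons, since the genes differ in length. Thbs4 was the most abundant member in every library, at 1677 ± 95.7 CPM per kb in WT and 2625 ± 298 in DTRScxLin (SD, n = 3 each). Comp came next at 295 ± 52.7 in WT and 261 ± 39.4 in DTRScxLin, followed by Thbs2 at 167 ± 16.1 and 219 ± 42.9 CPM per kb. Thbs1 had 81.3 ± 0.185 in WT and 139 ± 25.5 in DTRScxLin, and Thbs3 had 78.4 ± 7.58 and 73.4 ± 6.69 CPM per kb. This order held in 5 of the 6 libraries, the exception being WT replicate 3, where Thbs3 (85.9) was above Thbs1 (81.4). Over all libraries Thbs4 stood clear of the rest, whereas the ranges of Comp (235 to 355) and Thbs2 (154 to 257) overlapped, as did those of Thbs1 (81.2 to 155) and Thbs3 (66.2 to 85.9). In WT alone Thbs1 and Thbs3 were not separated, whereas in DTRScxLin the lowest Thbs1 value, 109, was above the highest Thbs3 value, 79.3.

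The make-up of the family was set side by side in the same unit. Thbs4 was 73.1%, 73.5% and 72.3% of the family's CPM per kb in the WT replicates in order and 78.7%, 81.4% and 77.3% in DTRScxLin replicates 1 to 3. Comp made up 11.6%, 12.4% and 14.4% in WT and 8.17%, 7.49% and 7.88% in DTRScxLin. Thbs3 made up 3.20%, 3.55% and 3.47% in WT and 2.12%, 2.11% and 2.44% in DTRScxLin. For these 3 pentameric members no share in a DTRScxLin library reached the WT range, upward for Thbs4 and downward for Comp and Thbs3. The shares sum to 100% and Thbs4 fills most of that, so a larger share of Thbs4 lowers the others by arithmetic, and the levels of Comp and Thbs3 themselves overlapped. The shares of the trimeric Thbs1 and Thbs2 overlapped between the groups.

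A ratio of the raw counts of a pair of members within a library does not depend on normalization. Thbs4 over Comp was 6.98, 6.58 and 5.58 in the WT replicates, in order, and 10.68, 12.05 and 10.88 in DTRScxLin replicates 1 to 3. The mean ratio was 11.2 ± 0.736 in DTRScxLin and 6.38 ± 0.724 in WT (SD, n = 3 each), and the groups were far apart beside their SDs. Thbs1 over Comp was 0.650, 0.606 and 0.469 in WT and 1.04, 0.951 and 1.29 in DTRScxLin, again without overlap. Thbs1 over Thbs2, the 2 trimers, was 0.382, 0.456 and 0.438 in WT and 0.523, 0.549 and 0.580 in DTRScxLin. By contrast Thbs1 over Thbs4 overlapped, at 0.0931, 0.0921 and 0.0840 in WT and 0.0970, 0.0789 and 0.118 in DTRScxLin, and so did Thbs3 over Comp, at 0.448, 0.467 and 0.393 in WT and 0.421, 0.457 and 0.504 in DTRScxLin. Of the 10 possible ratios, 6 did not overlap between the groups and 4 did, beside 17.8% without overlap among all pairs of the 15810 genes with at least 10 counts in every library. The 10 ratios come from 5 genes and are not independent of each other or of the levels above. The exact permutation test of 3 against 3 libraries cannot give a two-sided p below 0.10, so the ratios are given as values.

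**Figure D3:**
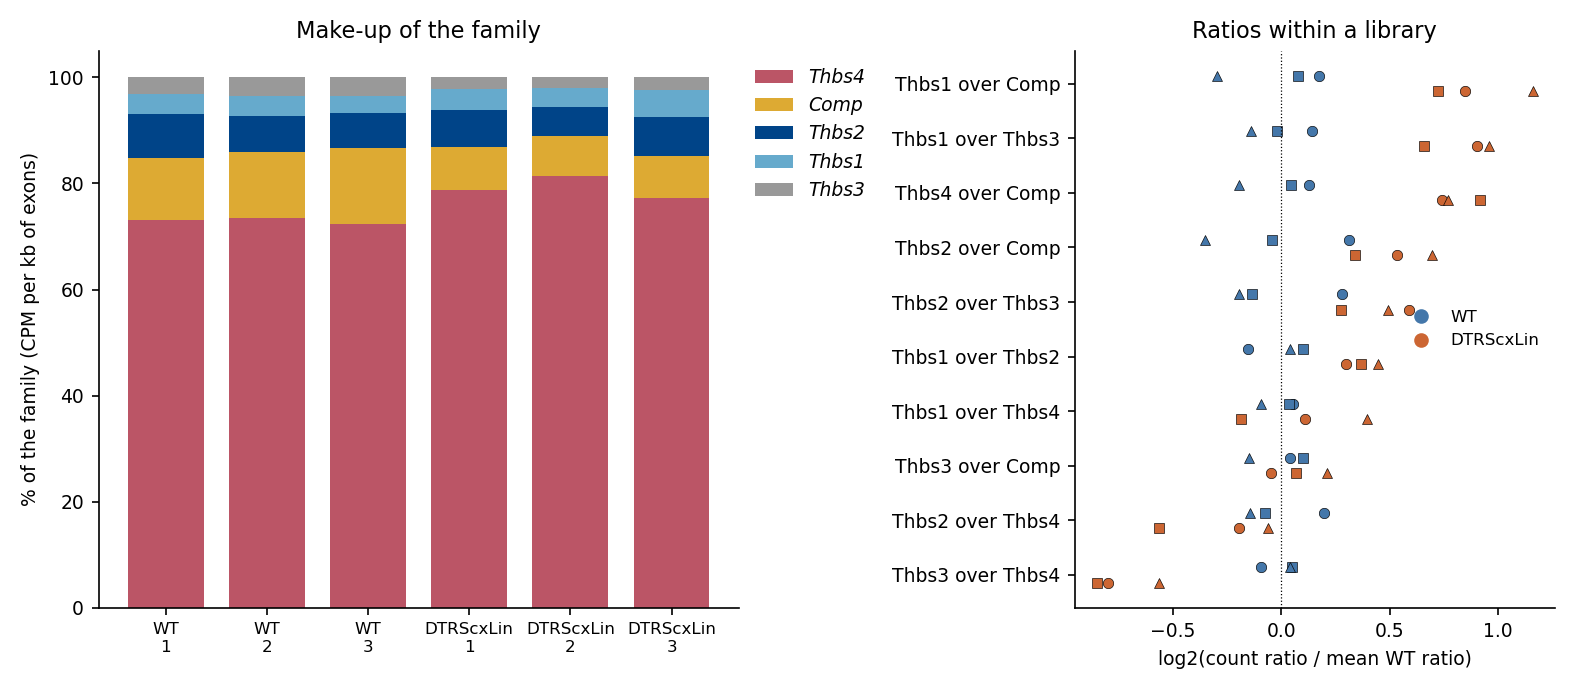
Left, share of each member in the family's CPM per kb of exons in each library (stacked bars, %). Right, log2 of the ratio of raw counts of each pair of members, relative to the mean WT ratio (a point per library; shape marks the replicate; dotted line at 0, the WT mean). Thbs4 fills 72.3% to 73.5% of the WT bars and 77.3% to 81.4% of the DTRScxLin bars, and 6 of the 10 ratios, which share 5 genes, do not overlap between the groups.

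Skeletal muscle transcripts moved with genotype in part, and their levels are therefore set beside the members. All 30 muscle markers had a negative log2 fold change (median -1.15). Of these, 0 were lower at an unadjusted p under 0.05 in edgeR's quasi-likelihood test, beside 5.45% of all tested genes. Without overlap 6 were lower, beside 7.85%. Myh1, a fast myosin heavy chain, was at 3849, 3290 and 2696 CPM in WT and 366, 2928 and 820 CPM in DTRScxLin replicates 1 to 3. DTRScxLin replicate 2 thus had a muscle share of 2.95%, inside the WT range of 2.44% to 3.34%, while the other 2 DTRScxLin libraries were below it. In that single library Thbs4 (8407 CPM) and Thbs1 (663 CPM) were above every WT library, and Thbs2 (1207 CPM) was within the WT range. The part of muscle in these values was not tested. The mean log2 CPM of the muscle markers was 9.39, 9.30 and 8.96 in WT replicates 1 to 3. In DTRScxLin replicates 1 to 3 it was 6.59, 9.23 and 7.20, so it is partly confounded with genotype. With this mean as a covariate, the log2 fold change was 0.45 for Thbs1, 0.06 for Thbs2, -0.27 for Thbs3, 0.56 for Thbs4 and -0.40 for Comp. Beside the fit without a covariate, Thbs1 fell from 0.77, Thbs2 from 0.39 and Thbs4 from 0.65, while Thbs3 and Comp moved further below 0, from -0.09 and -0.18, with adjusted p-values of 0.701 for Thbs1 and 0.712 for Thbs4 in edgeR's quasi-likelihood test. With the keratinocyte markers as the covariate the values were 0.80 for Thbs1, 0.43 for Thbs2, -0.15 for Thbs3, 0.55 for Thbs4 and -0.34 for Comp.

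**Figure D4:**
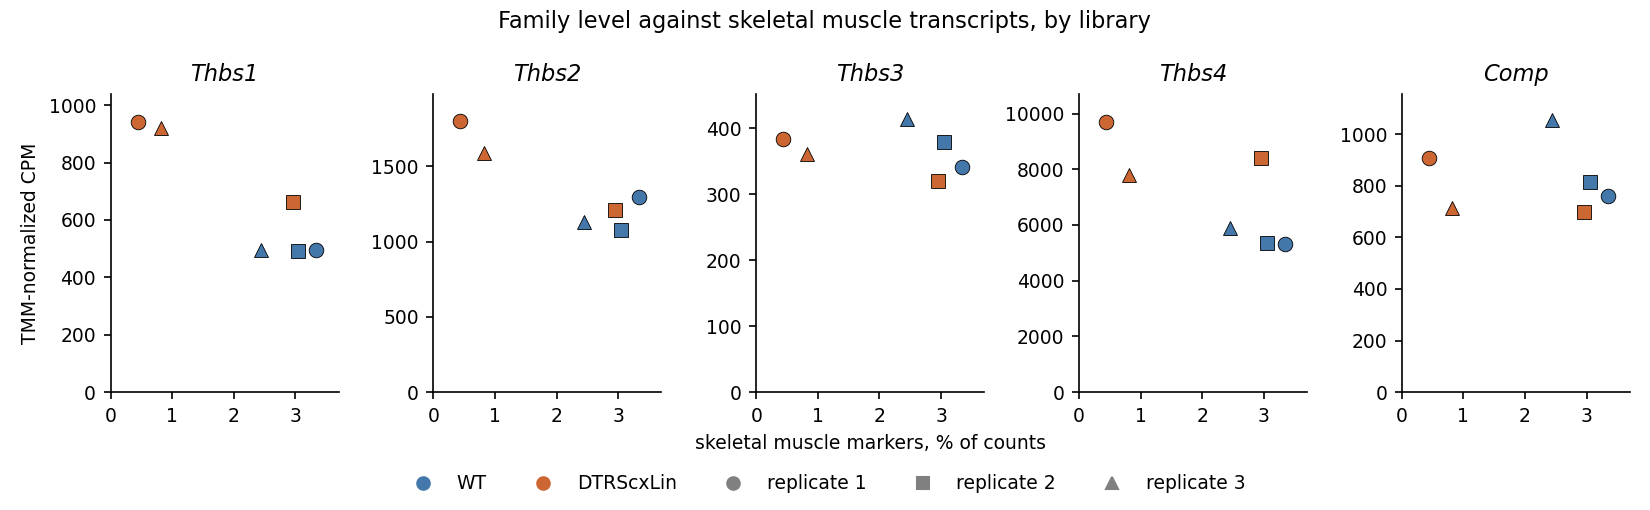
TMM-normalized CPM of each member (vertical axis, from 0) against the share of counts on skeletal muscle markers (horizontal axis, %) in the 6 libraries; color marks the group and shape the replicate. DTRScxLin replicate 2 (orange square), a single library, has a muscle share inside the WT range. It lies above the WT libraries for Thbs1 and Thbs4 and not for Thbs2, Thbs3 or Comp.

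Markers of other tissues took at most 0.494% of counts in any library. Platelet and megakaryocyte markers, of interest because platelets store Thbs1, took 0.00845% to 0.0126% of counts in all libraries, and Pf4 was at 82.9 to 110 CPM in WT and 72.0 to 104 CPM in DTRScxLin. Endothelial markers took 0.0844% to 0.111% in WT and 0.0854% to 0.103% in DTRScxLin, and macrophage markers 0.400% to 0.494% and 0.431% to 0.465%. Smooth muscle and pericyte markers took 0.188% to 0.215% in DTRScxLin and 0.232% to 0.314% in WT, but the list holds Des, which is also a skeletal muscle marker, and the other 9 genes overlapped (0.1498% to 0.1786% against 0.175% to 0.260%). Erythroid markers did not overlap, at 0.00549% to 0.00891% in DTRScxLin and 0.00963% to 0.0217% in WT. The summed shares of adipocyte markers overlapped (0.0265% to 0.0324% in WT and 0.0166% to 0.0280% in DTRScxLin). Those of Schwann cell markers did too (0.0626% to 0.115% and 0.0453% to 0.0802%). Gene by gene, however, all 10 adipocyte markers had a negative log2 fold change (median -2.27). Of these, 8 were lower at an unadjusted p under 0.05 in edgeR's quasi-likelihood test, beside 5.45% of all tested genes. Without overlap 7 were lower, beside 7.85%, and DESeq2 called 5 as lower, beside 1.53%. All 5 tested erythroid markers were lower at that unadjusted p (median -1.11), 4 of them without overlap, and DESeq2 called 4 as lower. Of the 10 Schwann cell markers 8 were negative and 2 positive, and DESeq2 called 2 as lower. All 19 tested keratinocyte markers and all 10 smooth muscle and pericyte markers were negative, with 1 lower at that unadjusted p in each list. Macrophage, endothelial and platelet markers had both signs. The part of these tissues in the members' results was not tested.

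The genes whose products meet thrombospondins in the tissue were grouped by role into 7 lists. They hold 127 tested genes, of which 92 had a positive log2 fold change, beside 51.5% of all tested genes. edgeR's quasi-likelihood test called none of them (lowest adjusted p = 0.260). At an unadjusted p under 0.05, 20 were higher and 5 lower, beside 5.52% and 5.45% of all tested genes. DESeq2 called 12 as higher and 2 as lower, beside 1.12% and 1.53% of all genes it tested. The same shares stand beside the counts given for each list below. The lists share 7 genes.

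Receptors and cell-surface partners, through which cells sense thrombospondins, had a median log2 fold change of -0.06 over 17 tested genes, with 1 higher and 1 lower at an unadjusted p under 0.05. Itga3, the alpha chain of a laminin and thrombospondin-1 receptor, was at 15.8 ± 1.78 CPM in WT and 10.4 ± 1.36 CPM in DTRScxLin (SD, n = 3 each), without overlap (log2 fold change -0.61, adjusted p = 0.293, edgeR's quasi-likelihood test; 0.0195 with DESeq2). Itgav, which pairs with beta chains that bind the RGD sequence, was at 95.4 ± 2.35 CPM in WT and 119 ± 11.6 CPM in DTRScxLin, also without overlap (log2 fold change 0.32, adjusted p = 0.347). The groups overlapped for the receptors of Thbs1 best known in vessels, Cd36 (log2 fold change -0.33) and Cd47 (0.12), which are named here although the rule for named genes did not take them. Itgb1, the most abundant gene of this list, was at 1228 ± 127 CPM in WT and 1500 ± 206 CPM in DTRScxLin (log2 fold change 0.29), with overlap.

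Matrix partners had a median log2 fold change of 0.32 over 20 tested genes, with 4 higher and 3 lower at an unadjusted p under 0.05. Fbn1, which forms the microfibrils that store latent TGF-beta, was at 1057 ± 105 CPM in WT and 1763 ± 61.6 CPM in DTRScxLin (SD, n = 3 each; log2 fold change 0.74, standard error 0.13, adjusted p = 0.260 with edgeR's quasi-likelihood test). Col5a1, a collagen that sets fibril diameter, was at 1239 ± 79.9 and 1960 ± 587 CPM (log2 fold change 0.66, adjusted p = 0.389). Neither gene overlapped between the groups, and both were on the study's matrix list from these libraries. Matn3, a matrilin that Comp binds in cartilage, was lower in DTRScxLin without overlap, at 8.28 ± 1.28 against 10.9 ± 0.917 CPM in WT (log2 fold change -0.40, adjusted p = 0.440). Col1a2, a chain of type I collagen, was at 16283 ± 1255 and 20373 ± 4217 CPM, and its groups overlapped.

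Proteases that cut or bind the family had a median log2 fold change of 0.27 over 10 genes, with 1 higher and 0 lower at an unadjusted p under 0.05. That gene was Adamts1, which cleaves Thbs1 and Thbs2 and has type 1 repeats of its own, at 42.0 ± 2.64 CPM in WT and 58.5 ± 4.10 CPM in DTRScxLin (SD, n = 3 each; log2 fold change 0.48, standard error 0.090, adjusted p = 0.268 with edgeR's quasi-likelihood test). Mmp2, a gelatinase that Thbs2 helps to clear, was at 3557 ± 221 and 4350 ± 1000 CPM, without overlap (log2 fold change 0.29, adjusted p = 0.587). The separation of Mmp2 was narrow, since DTRScxLin replicates 1 to 3 had 5504, 3732 and 3814 CPM and the highest WT library had 3712 CPM. Mmp19, which cuts Comp, overlapped between the groups at a log2 fold change of 0.37. 

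Latent TGF-beta, its ligands and its receptors, on which Thbs1 acts, had a median log2 fold change of 0.13 over 12 genes. Tgfbr2, the type II receptor, was the single gene at an unadjusted p under 0.05, at 491 ± 26.0 CPM in WT and 589 ± 18.8 CPM in DTRScxLin (SD, n = 3 each; log2 fold change 0.26, adjusted p = 0.439 with edgeR's quasi-likelihood test). Ltbp1, which tethers the latent complex to the matrix, had a log2 fold change of 0.31 and Nrros, which holds latent TGF-beta on macrophages, had -0.12. Known target genes of TGF-beta had a median of 0.39 over 10 genes, with 5 higher and 0 lower at an unadjusted p under 0.05 and 4 called by DESeq2. Lox, the enzyme that crosslinks collagen, was at 1299 ± 28.2 CPM in WT and 2053 ± 207 CPM in DTRScxLin (log2 fold change 0.66, adjusted p = 0.274). Postn, a matricellular protein of healing tissue, was at 2992 ± 587 and 4745 ± 1097 CPM (0.67, adjusted p = 0.398). Lox, Postn and Col5a1 were among those the study chose on these libraries, while Smad7 (-0.07), Pmepa1 (-0.15) and Tgfbi (0.06), 3 other targets on the list that are named after their values were seen, were near 0.

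Other genes with thrombospondin type 1 repeats, the module that Thbs1 and Thbs2 share with ADAMTS proteases, CCN proteins and R-spondins, had a median log2 fold change of 0.12 over 47 tested of 53 listed genes. At an unadjusted p under 0.05, 10 were higher and 1 was lower. Adamts16 was at 4.74 ± 0.747 CPM in WT and 9.65 ± 2.04 CPM in DTRScxLin (SD, n = 3 each; log2 fold change 1.02, adjusted p = 0.274 with edgeR's quasi-likelihood test). Adamts14, a procollagen N-proteinase, was at 17.9 ± 2.39 and 25.5 ± 1.26 CPM (0.51, adjusted p = 0.277), and Spon1, the most abundant gene of the list, at 494 ± 34.8 and 825 ± 285 CPM (0.74, adjusted p = 0.393). All 3 were without overlap and, like Adamts1, stood on the study's matrix list from these libraries, so their direction is not independent evidence. For Spon1 the separation was narrow, since DTRScxLin replicates 1 to 3 had 1113, 542 and 821 CPM and the highest WT library had 523 CPM.

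Genes of protein folding in the endoplasmic reticulum and targets of Atf6, the factor that Thbs4 binds inside the cell, had small values that were mostly positive. Of 18 tested genes 16 were positive and 2 negative, the median log2 fold change was 0.12, and 0 had an unadjusted p under 0.05 in edgeR's quasi-likelihood test. Pdia4, a disulfide isomerase, was at 125 ± 23.5 CPM in WT and 159 ± 22.7 CPM in DTRScxLin (SD, n = 3 each; log2 fold change 0.35, adjusted p = 0.473). Calr, a chaperone that also binds Thbs1 at the cell surface, was the most abundant, at 711 ± 151 and 813 ± 76.7 CPM (0.19). Edem1 (0.17) and Herpud1 (-0.24), which act in the disposal of misfolded proteins, overlapped between the groups as well.

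**Figure D5:**
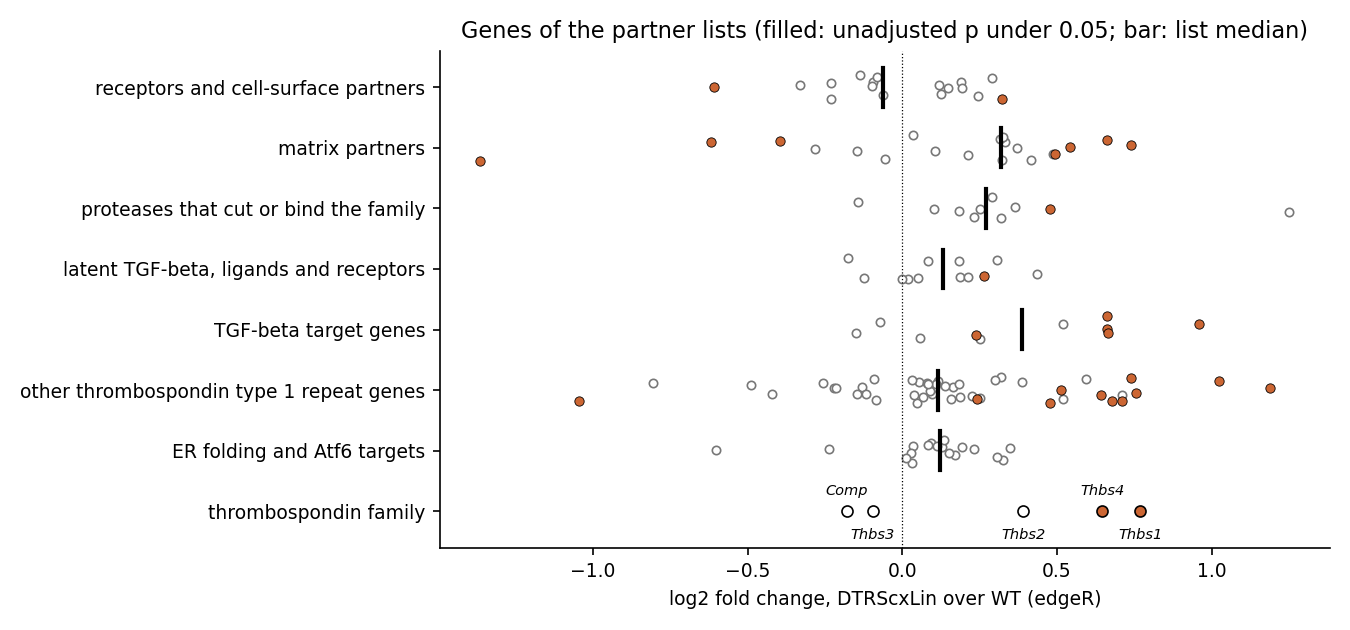
Log2 fold change (DTRScxLin over WT, edgeR) of every tested gene of the 7 partner lists and of the family members (a point per gene; filled where the unadjusted p is under 0.05; black bar, list median; dotted line at 0). The medians run from -0.06 for the receptors to 0.39 for the TGF-beta target genes, and Thbs4 and Thbs1 lie at 0.65 and 0.77.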

How the data were processed

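FDL tendon RNA (200 ng per library) of 3 DTRScxLin and 3 WT mice was sequenced. Per the labels and methods, the authors demultiplexed reads (bcl2fastq 2.19.0), cleaned them (FastP 0.20.0), counted them per gene (featureCounts, subread 1.6.4) and deposited whole-number counts. They also deposited a signal table of the counts divided by DESeq2 (1.22.1) size factors. The aligner, genome build, annotation and strand setting are not given in the sources used here. Both the TruSeq Stranded and a SMARTER kit are named.

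The test was that of edgeR 4.0.16 in R 4.3.3 (TMM, filterByExpr, robust quasi-likelihood fit, genotype as the single term, Benjamini-Hochberg adjustment over all 17496 tested genes, threshold 0.05). DESeq2 1.42.0 and limma 3.58.1 were alternatives, with other normalizations, filters, covariates, the replicate number as a block and each library left out. The share of all gene pairs whose count ratio does not overlap, and the smooth muscle markers without Des, were added after seeing the data. CPM are TMM-normalized, and differences are DTRScxLin minus WT. Lengths are union exons of GENCODE vM21, matched by symbol for 92.8% of listed genes and all 5 members. At these depths counting error is small (at most 0.787% of any member's level), so n = 3 limits the precision, and p-values measure the spread between these 6 mice. Replicates differed by 36.6 to 190 chi-square units per degree of freedom, so none was a duplicate. Scripts were tested on simulated data.

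Groups came from the labels. Members, lists and tests were chosen with earlier results of these data known. The named genes were the members, the 3 genes of smallest p and the most abundant in each partner list, the 3 genes most alike to each member, their neighbours, and the 3 most abundant markers of other tissues, of which those that touch a result are printed. A gene that this rule takes is not reported here. The authors' D14 libraries, staining and mechanics were not analysed here.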

Additional observations from a re-analysis of the deposited data

How the results depend on the processing

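No member changed sign in any of 17 alternative settings for each member (85 values in all). The settings refit the same libraries, so these values are not independent. Some were smaller than their standard errors, so their sign is uncertain. They include Thbs2 with the muscle covariate (0.06 ± 0.18), Thbs3 without DTRScxLin replicate 2 (-0.02 ± 0.13) and Comp without WT replicate 3 (-0.03 ± 0.16). DESeq2 put Thbs1 (0.77, adjusted p = 0.000122) and Thbs4 (0.65, adjusted p = 5.94e-05) past the threshold, so 2 members were called in place of 0, with 14 partner genes and 466 genes in all. With no filter on low counts Thbs1 was called (0.77, adjusted p = 0.0218), 1 member in all, with 3 partner genes and 83 genes in all. With each library left out in turn, Thbs1 ranged from 0.68 to 0.92, Thbs2 from 0.25 to 0.54, Thbs3 from -0.16 to -0.02, Thbs4 from 0.55 to 0.72 and Comp from -0.31 to -0.03. Members called ranged from 0 to 1 and partner genes called from 0 to 6. The single call, Thbs1 at 0.92 (adjusted p = 0.0129), came without DTRScxLin replicate 2, where edgeR called 544 genes. Over all settings the adjusted p of Thbs1 lay between 0.000122 and 0.835 and that of Thbs4 between 5.94e-05 and 0.838. With the replicate block the log2 fold changes were 0.75 for Thbs1 (adjusted p = 0.240), 0.38 for Thbs2, -0.09 for Thbs3, 0.64 for Thbs4 (adjusted p = 0.389) and -0.18 for Comp. The block called 1 gene in all and 0 members. The labels give the replicates a number and name no pairing. Same-numbered libraries deviated from their group means with correlations of -0.222, -0.179 and -0.710, and no library correlated best with its own number. With 3 libraries per group that also differed in sex, muscle and keratinocyte markers, these correlations cannot decide whether same-numbered tendons were paired. By the longest transcript in place of the union of exons, the mean level was 90.8 in place of 75.9 CPM per kb for Thbs3 and 342 in place of 278 for Comp, in the same order of members. The cause of these differences was not tested.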

Other observations

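The genes whose levels followed each member most closely over the 6 libraries were listed by Pearson's r of log2 CPM among the 14409 genes that averaged 50 normalized counts or more. For Thbs1 they were P4ha3 (r = 0.992), a prolyl hydroxylase subunit that modifies collagen, Brca2 (0.993), a DNA repair gene, and Cog2 (0.991), a Golgi gene. For Thbs4 they were Prkacb (0.994), Utp14b (0.993) and Apold1 (0.992), and for Thbs2 Pdk3 (0.998), Nxn (0.997) and Twf1 (0.996). Thbs3 was followed most closely by Plekha5 (0.991), Tspan9 (0.989) and Flt1 (0.985), and Comp by Smarcd2 (0.992), Paf1 (0.980) and Esyt1 (0.975). The size of the difference was not shared by all of these, since P4ha3 was at 53.6, 55.7 and 56.8 CPM in WT and 113, 75.8 and 99.0 CPM in DTRScxLin replicates 1 to 3, a log2 fold change of 0.79, while Cog2 had 0.11. An r above 0.9 was reached by 330 genes (2.29%) for Thbs1, 400 (2.78%) for Thbs2, 398 (2.76%) for Thbs4, 63 (0.437%) for Thbs3 and 45 (0.312%) for Comp. Without any 1 library, 0 to 2 of a member's 3 genes stayed among its closest 3. The libraries share genotype, depth and tissue make-up, so the values are a description.

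The protein-coding genes next to each member, in RefSeq order, mostly had small log2 fold changes. Those beside Thbs4 were Serinc5 (0.07) and Mtx3 (-0.01), while Rasgrp1 beside Thbs1 had -0.54 at a low level (5.29 CPM in WT and 3.63 in DTRScxLin), with overlap, and Fsip1 was too low to be tested. Beside Thbs2 they were Smoc2 (0.10) and Wdr27 (-0.23), and beside Comp Upf1 (-0.10) and Crtc1 (0.12). Beside Thbs3 were Mtx1 (0.02) and Muc1, an epithelial mucin, which was lower in DTRScxLin without overlap (12.1 CPM in WT and 7.68 in DTRScxLin, log2 fold change -0.65, adjusted p = 0.407 with edgeR's quasi-likelihood test). Thbs1 shares 208 exon bases (3.42%) with the antisense gene Gm29233, which had 4 counts over all libraries.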
